A study of Mus musculus with 14 samples.

Results

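The 10 genes described here are heat shock and mitochondrial chaperones, chosen by symbol: Hspa1a, Hspa1b, Hsph1, Dnajb1, Hspb1, Hsp90aa1, Hspa8, Hspa5, Hspd1 and Hspe1. They are 10 of the 46095 gene symbols for which reads were counted by RNA-seq in the superior mesenteric artery (SMA), the vessel that supplies most of the small intestine. All 10 were among the 17693 genes that passed the filter on low counts. The 14 samples were 8-week-old C57BL/6 mice in 4 groups. Under normal conditions there were 3 wild type mice (WT, Drp1 +/+) and 4 Drp1 KO mice, and after ischemia there were again 3 WT and 4 KO mice. The KO group carried 1 changed allele of Drp1, the mitochondrial fission GTPase that the gene Dnm1l encodes. The sample labels give this genotype as flox/+, whereas the study's methods describe a Drp1 +/- line made by CRISPR/Cas9, and no Cre driver is named. The labels give the ischemic period as 2 h and the study's methods as 4 h, in mice made ischemic by blood loss.

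Chaperones bind unfolded or partly folded proteins and keep them from aggregating. Heat shock factor 1 (HSF1), released when unfolded proteins build up in the cytosol, binds heat shock elements in promoters and induces Hspa1a and Hspa1b (the inducible HSP70 proteins), Dnajb1 (an HSP40 co-chaperone that drives HSP70's ATPase), Hsph1 (an HSP110 nucleotide exchange factor of HSP70), Hspb1 (a small heat shock protein abundant in muscle, where it also binds actin filaments) and Hsp90aa1 (the inducible cytosolic HSP90). Hspa8 is the constitutive cytosolic HSP70. Hspa5 (BiP) is the HSP70 of the endoplasmic reticulum (ER) and rises in the unfolded protein response, while Hspd1 (HSP60) and Hspe1 (HSP10) form the folding chamber of the mitochondrial matrix.

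RefSeq promoter sequences (GRCm38.p6, 250 bases before to 50 after each start site, printed 5′ to 3′ on the gene's strand) were matched for 8 of the 10 genes. The promoters below are shown because they hold the elements by which these genes are usually grouped into the cytosolic, ER and mitochondrial responses. Capitals mark an inverted repeat of the heat shock element (GAANNTTC or TTCNNGAA) or, in Hspa5, the ER stress element (CCAAT, any 9 bases, CCACG). Both strands were searched, and overlapping matches were kept.
Hspa1a (chr17:34972107-34972406, minus strand): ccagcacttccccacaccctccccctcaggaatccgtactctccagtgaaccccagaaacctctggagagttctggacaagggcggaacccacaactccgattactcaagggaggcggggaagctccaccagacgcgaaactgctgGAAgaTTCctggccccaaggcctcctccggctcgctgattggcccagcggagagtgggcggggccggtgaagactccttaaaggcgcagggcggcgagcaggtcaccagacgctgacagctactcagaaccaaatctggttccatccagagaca
Hsph1 (chr5:149636266-149636565, minus strand): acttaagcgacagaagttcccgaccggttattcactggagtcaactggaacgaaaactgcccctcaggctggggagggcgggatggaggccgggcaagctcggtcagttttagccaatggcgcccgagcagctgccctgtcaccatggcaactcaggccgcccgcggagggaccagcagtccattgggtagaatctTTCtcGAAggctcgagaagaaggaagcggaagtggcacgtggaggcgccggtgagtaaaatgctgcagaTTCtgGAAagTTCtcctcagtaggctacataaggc
Hspb1 (chr5:135887669-135887968, plus strand): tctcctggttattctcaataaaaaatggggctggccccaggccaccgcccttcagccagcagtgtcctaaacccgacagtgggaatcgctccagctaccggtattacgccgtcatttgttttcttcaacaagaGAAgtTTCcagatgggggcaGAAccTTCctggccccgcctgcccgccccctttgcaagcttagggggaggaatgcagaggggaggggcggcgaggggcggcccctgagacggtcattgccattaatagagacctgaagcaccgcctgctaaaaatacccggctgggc
Hspa5 (chr2:34771840-34772139, plus strand): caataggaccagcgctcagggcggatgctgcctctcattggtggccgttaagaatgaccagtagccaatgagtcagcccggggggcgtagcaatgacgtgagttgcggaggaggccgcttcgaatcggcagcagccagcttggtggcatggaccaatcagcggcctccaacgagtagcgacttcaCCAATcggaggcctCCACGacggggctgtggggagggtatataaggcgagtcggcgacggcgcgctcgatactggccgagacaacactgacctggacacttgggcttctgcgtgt
Hspd1 (chr1:55087883-55088182, minus strand): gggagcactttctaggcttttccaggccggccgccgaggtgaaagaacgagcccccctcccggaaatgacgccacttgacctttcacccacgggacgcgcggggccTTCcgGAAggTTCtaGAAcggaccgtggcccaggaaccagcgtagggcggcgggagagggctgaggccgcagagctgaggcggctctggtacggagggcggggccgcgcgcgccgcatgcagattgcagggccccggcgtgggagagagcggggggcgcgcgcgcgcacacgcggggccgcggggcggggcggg

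GAANNTTC or TTCNNGAA was present in 7 of the 11 promoter sequences of these 8 genes, against 15.1% of 32851 promoters of the same length, and the 7 belong to Hspa1a, Hspa1b, Hsph1, Hspb1, Hspd1 and Hspe1. The Hspb1 promoter held GAANNTTC in 2 places, starting 117 and 97 bases before the start site. A run of 3 alternating repeats, in which GAA and TTC follow each other with 2 bases between, contains these shorter motifs and was found in 4 of the 11 sequences (Hspd1, Hspe1 and Hsph1) and in 0.603% of all promoters. The 2 Hsph1 sequences overlap and hold the same run, chr5:149636288-149636300, and the Hspa1a and Hspa1b promoters share 296 of 300 bases. The 4 and the 7 sequences are therefore not separate elements, which limits the contrast with all promoters. RefSeq has 2 promoters of Hspd1. The printed one was chosen because it holds the element, and the other (chr1:55088194-55088493), whose start is that of the GENCODE gene, held no match. The element of the printed Hspd1 promoter and that of Hspe1 are the same bases of the genome, chr1:55088059-55088076, read from opposite strands. The ER stress element was found in 1 of the 11 sequences, that of Hspa5, and in 0.119% of all promoters. No match was found in the windows of Dnajb1. These matches describe letters in a window and say nothing about whether a factor was bound in these arteries.

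The total count was 25612646 to 40255851 per mouse, and 3 counts, taken as the smallest level the depth can show, corresponded to 0.0678 to 0.113 CPM (counts relative to the library total, scaled by TMM). Normal WT replicate 3 was sequenced on lane 1 and the other 13 mice on lane 8. Dnm1l, the targeted gene, had 63.8, 65.7 and 90.9 CPM in normal WT mice and 54.8 to 62.2 CPM in normal KO mice, and 63.1 to 81.0 CPM in WT against 60.0 to 76.0 CPM in KO mice after ischemia. The normal KO mice all lay below the normal WT mice, but the difference of −0.32 ± 0.16 (log2 ± SE) did not pass the test (edgeR adjusted p = 0.974), and after ischemia the groups overlapped. How many of all genes were separated in this way under normal conditions was not counted. Of the smooth muscle markers, Myh11 reached 2726 to 13670 CPM and Acta2 3357 to 18600 CPM in the 14 mice, whereas Tagln, usually abundant in smooth muscle, had only 0.675 to 5.78 CPM. Brown adipocyte markers were also present, in amounts that differed between mice, with Ucp1 at 40.3 to 4072 CPM.

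Levels of the genes were compared per kilobase of exon (GENCODE M21). Hspb1 had the highest median over the 14 mice, at 225 CPM per kb, followed by Hspa8 at 173, Hspa5 at 85.6, Hspd1 at 63.2, Hspe1 at 40.9, Hsp90aa1 at 37.5, Hsph1 at 13.8 and Dnajb1 at 12.3 CPM per kb. The inducible HSP70 genes lay far below, at 0.207 CPM per kb for Hspa1a and 0.0999 for Hspa1b. The order differed between groups, and in normal KO mice the median of Hspb1 (65.7 CPM per kb) was below those of Hspa8 (104), Hspd1 (69.0) and Hspa5 (68.1). Neighbours in the order over all mice overlapped in their ranges over the 14 mice with 1 exception. The lowest mouse for Dnajb1 (9.35 CPM per kb) was above the highest mouse for Hspa1a (1.93 CPM per kb). These levels divide by the full exon length. Of the 50-base windows of Hspa1a and Hspa1b, 60.3% and 62.3% also occur in other genes, against 0 for Hsph1 and Hspa5. How reads with several matches were counted is not given in the sources used here. If they were left out, genes with shared sequence would read too low, so their places in the order are uncertain.

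**Figure D1:**
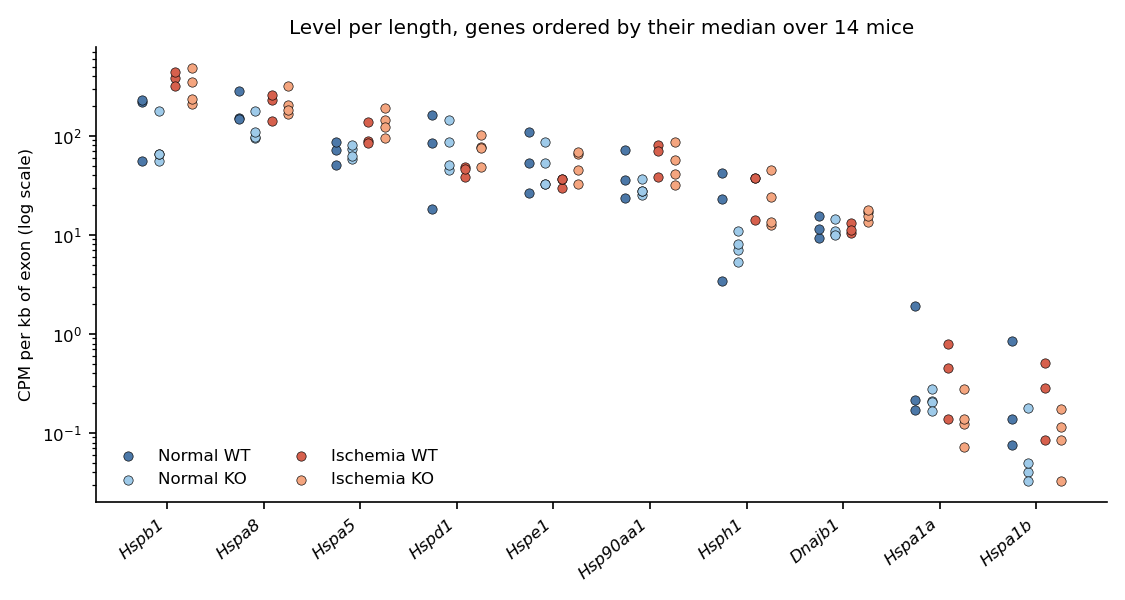
Level of each chaperone gene in each of the 14 mice, in CPM per kb of exon on a log axis, with genes ordered by their median and colours for the 4 groups (3, 4, 3 and 4 mice). The gap between Dnajb1 (median 12.3 CPM per kb) and Hspa1a (median 0.207 CPM per kb) separates the inducible HSP70 genes from the other 8.

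The genes differed in how much mice of the same group varied. Dnajb1 was the steadiest, with a standard deviation within groups of 0.24 on the log2 CPM scale and a highest mouse 1.89 times the lowest. Hspa5 had 0.36, Hspa8 0.46 and Hsp90aa1 0.58. Hspe1 had 0.65, Hspb1 0.74 and Hspd1 0.88, and Hsph1, Hspa1a and Hspa1b varied most, with 1.06, 1.07 and 1.11. Hsph1 had 704 to 10743 reads per mouse, whereas Hspa1a and Hspa1b had only 482 and 239 reads in all 14 mice together.

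**Figure D2:**
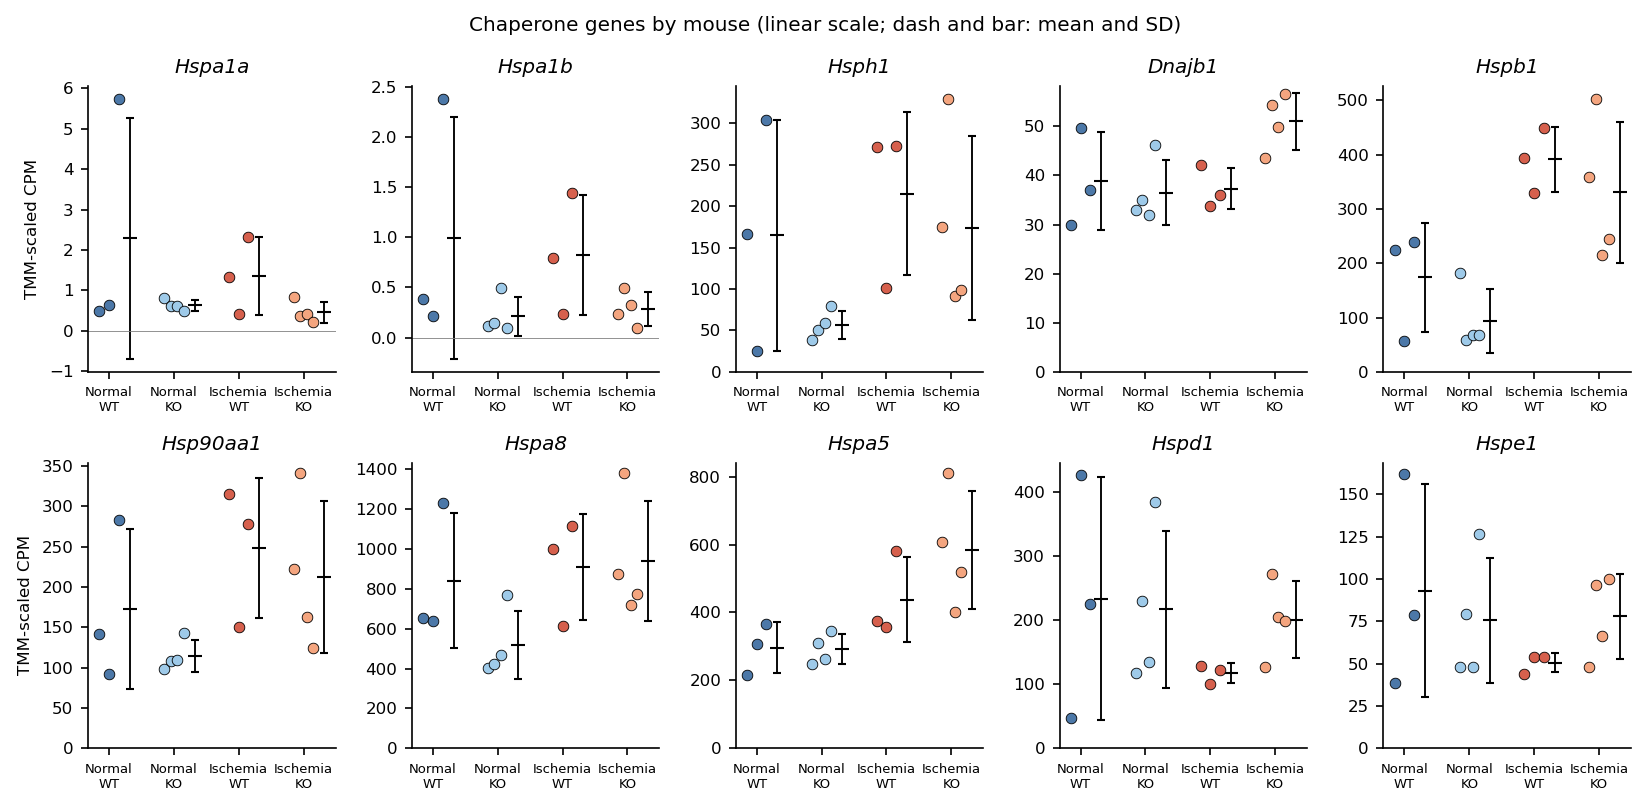
TMM-scaled CPM of the 10 genes in each mouse on linear axes, by group (3, 4, 3 and 4 mice), with a dash and bar for the mean and SD beside the points. Every ischemic mouse lies above every normal mouse for Hspb1 within each genotype and for Hspa5 in KO mice, while the WT groups of Hspa5 overlap. Such a separation was found for 6.63% of all genes in WT and 5.49% in KO mice, and neither gene passed the limits in edgeR. Normal WT replicate 3 is the highest point for Hspa1a (5.74 CPM) and Hspa1b (2.38 CPM).

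The first comparison asked how the arteries differed after ischemia from those under normal conditions, averaged over both genotypes. None of the 10 genes passed an FDR under 0.05 with a fold change over 1.5 in edgeR, a limit that 0.927% of all genes tested passed. At an unadjusted p under 0.05, 4 of the 10 were higher after ischemia (Hspb1, Hspa5, Hsp90aa1 and Hsph1) and 0 were lower, while 8.35% of all genes were higher at that level. Hspb1 and Hspa5 lay nearest to the limit, and DESeq2 called both. In this comparison DESeq2 called 870 of the 17693 genes, where edgeR called 164. The median log2 difference was 0.35 over the 10 genes and −0.046 over all genes.

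Hspb1 had 225, 57.3 and 239 CPM in normal WT mice, and 395, 329 and 450 CPM in WT mice after ischemia. The KO mice had 183, 58.0, 68.4 and 67.1 CPM under normal conditions and 358, 503, 216 and 244 CPM after ischemia. Within each genotype every ischemic mouse was above every normal mouse, a separation found for 6.63% of all genes in WT and 5.49% in KO mice. Genes separated in both genotypes were not counted. The average difference was 1.49 ± 0.36 (log2 ± SE), or 2.81-fold (edgeR adjusted p = 0.0689, DESeq2 adjusted p = 0.00194). A two-sided exact permutation of the condition within each genotype gave p = 0.00143, the smallest its 1400 arrangements can give, and an adjusted p of 0.0808 over all genes. The adjusted p at this smallest p was above 0.05, so the permutation could not call any gene. Smooth muscle markers moved with Hspb1. Their summed level (5 genes, none at 0) was 6971 to 24520 CPM in normal WT and 10170 to 24180 CPM in normal KO mice, against 19600 to 35650 and 18330 to 29770 CPM after ischemia. Of these 5 genes, 5 had higher estimates after ischemia, 1 of them at an unadjusted p under 0.05, with a median log2 difference of 0.53. The part of the smooth muscle share in the Hspb1 difference was not tested, and in such whole-tissue samples more cells of a type and more RNA per cell cannot be told apart.

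Hspa5 had 217, 306 and 367 CPM in normal WT mice and 376, 357 and 582 CPM in WT mice after ischemia. In KO mice it had 249, 311, 264 and 345 CPM under normal conditions and 607, 812, 401 and 519 CPM after ischemia. The KO groups did not overlap, as for 5.49% of all genes, whereas in WT mice 1 normal mouse was above the lowest ischemic mouse. The average difference was 0.78 ± 0.19, or 1.72-fold (edgeR adjusted p = 0.0820, DESeq2 adjusted p = 0.00432), and the exact permutation gave p = 0.00286 with an adjusted p of 0.0926. With the mice of lane 8 alone, the average difference was 0.87 for Hspa5 and 1.65 for Hspb1 (edgeR adjusted p = 0.0650 for both).

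Hsp90aa1 had 141, 92.5 and 283 CPM in normal WT mice and 316, 151 and 278 CPM in WT mice after ischemia. Among KO mice it had 98.3, 108, 110 and 144 CPM under normal conditions and 222, 341, 163 and 124 CPM after ischemia. Groups overlapped in both genotypes, and the average difference of 0.71 ± 0.28 did not pass the test (edgeR adjusted p = 0.220). Hsph1, its partner in HSF1-driven induction, had 167, 25.0 and 304 CPM in normal WT mice and 271, 102 and 273 CPM in WT mice after ischemia. In KO mice Hsph1 had 38.9, 51.0, 58.8 and 79.2 CPM under normal conditions and 175, 330, 91.6 and 98.5 CPM after ischemia. Its groups overlapped in WT mice but not in KO mice, a separation found for 5.49% of all genes. The average difference for Hsph1 was 1.0 ± 0.46 (edgeR adjusted p = 0.275).

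Hspa8 had 653, 638 and 1232 CPM in normal WT mice and 1001, 613 and 1118 CPM in WT mice after ischemia. Levels in KO mice were 405, 424, 468 and 769 CPM under normal conditions and 877, 1383, 722 and 777 CPM after ischemia. The WT groups overlapped over most of their range, and in the KO groups only normal KO replicate 4 reached into the ischemic range. The average difference of 0.49 ± 0.24 did not pass the test (edgeR adjusted p = 0.304). Dnajb1 stayed between 29.9 and 56.5 CPM in all mice, with an average difference of 0.21 ± 0.14 (edgeR adjusted p = 0.428).

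The inducible HSP70 genes were near the lower end of detection in both conditions, and their differences did not pass the test. Hspa1a had 17, 18 and 152 reads in normal WT mice (0.502, 0.639 and 5.74 CPM) and 44, 12 and 84 reads in WT mice after ischemia (1.34, 0.408 and 2.32 CPM). In KO mice it had 16 to 29 reads under normal conditions and 7 to 28 after ischemia. Hspa1b had 13, 6 and 63 reads in normal WT mice, 26, 7 and 52 in WT mice after ischemia, 3 to 22 in normal KO and 3 to 16 in ischemic KO mice. The highest mouse for both was normal WT replicate 3, the mouse of lane 1. The average difference was −0.61 ± 0.60 for Hspa1a and 0.077 ± 0.68 for Hspa1b (edgeR adjusted p = 0.605 and 0.966), and with the mice of lane 8 alone it was 0.39 and 0.94 (edgeR adjusted p = 0.698 and 0.469). Differences of this size were not detectable at these counts and this spread.

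Most of the sequence of Hspa1a and Hspa1b cannot tell the genes apart. Of the 50-base windows in the exons of Hspa1a, 58.8% occur unchanged in Hspa1b, and the promoters share 296 of 300 bases. Hspa1a (chr17:34969190-34972156) also shares 564 exonic bases, or 19.0% of its length, with Gm20481 on the opposite strand. How the counting treated reads with several matches, and whether it used strand, is not given in the sources used here. The split of reads between these genes, and whether such reads were counted at all, is therefore uncertain. The same holds for Hspb1, Hsp90aa1, Hspa8 and Hspd1, of whose windows 51.6%, 58.5%, 51.4% and 44.8% occur elsewhere among annotated exons, mainly in pseudogenes, and not for Hsph1 and Hspa5, which shared 0 windows.

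The mitochondrial chaperonin genes had lower average estimates after ischemia, and neither passed the test. Hspd1 had 48.1, 427 and 226 CPM in normal WT mice and 129, 101 and 123 CPM in WT mice after ischemia. Hspd1 in KO mice had 118, 230, 134 and 385 CPM under normal conditions and 127, 272, 206 and 200 CPM after ischemia. Normal WT mice spanned the lowest and the highest value of all 14 mice, and the ischemic WT mice lay within that span. Hspe1 had 38.7, 162 and 78.7 CPM in normal WT mice and 44.1, 54.0 and 54.0 CPM in WT mice after ischemia. In KO mice it had 48.1, 79.2, 48.3 and 127 CPM under normal conditions and 48.2, 96.7, 66.6 and 100.3 CPM after ischemia. The average difference was −0.55 ± 0.39 for Hspd1 and −0.42 ± 0.31 for Hspe1 (edgeR adjusted p = 0.471 and 0.491).

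Brown adipocyte markers, whose cells are rich in mitochondria, were set beside Hspd1 and Hspe1. Their summed level (Ucp1, Cidea, Elovl3 and Cox8b, none at 0) was 149.8 to 6505 CPM in normal WT, 1079 to 6047 in normal KO, 259 to 1322 in ischemic WT and 930.8 to 4691 CPM in ischemic KO mice. Each of the 10 genes was also correlated with the mean log2 CPM of each of 13 marker lists over the 14 mice, with group means removed (130 relations, two-sided exact permutation within groups). The relation of Hspe1 with the brown adipocyte markers was the only relation of the 130 that passed Benjamini-Hochberg adjustment at 0.05 in both measures, with r = 0.904 and rho = 0.877 (p = 4.82e-05 for both, the smallest the 20736 arrangements can give, adjusted p = 0.00627). Its r was 0.831 without normal WT replicates 1 and 2, the 2 mice farthest from the median of Hspe1, and 0.917 over the 13 mice of lane 8. Hspd1 and the same markers had r = 0.876 (exact permutation, p = 0.00468, adjusted p = 0.152) and rho = 0.697 (p = 0.0247, adjusted p = 0.357), and r fell to 0.628 without the same 2 mice. The relation was not particular to brown adipocyte markers. With white adipocyte markers (Adipoq, Plin1, Lep and Retn), Hspd1 had r = 0.923 (exact permutation, adjusted p = 0.0773) and rho = 0.899 (adjusted p = 0.1275). Without the same 2 mice its r was 0.850. Hspe1 and the white adipocyte markers had r = 0.817 (exact permutation, adjusted p = 0.0773) and rho = 0.824 (adjusted p = 0.1552). With endothelial markers Hspe1 had r = 0.764 (exact permutation, adjusted p = 0.185) and rho = 0.820 (adjusted p = 0.1275). With smooth muscle markers it had r = −0.808 (exact permutation, adjusted p = 0.276) and rho = −0.798 (adjusted p = 0.161). Hspb1 and the smooth muscle markers had r = 0.861 (exact permutation, p = 0.00627, adjusted p = 0.163) and rho = 0.811 (p = 0.00810, adjusted p = 0.161), with r = 0.456 without normal WT replicate 2 and normal KO replicate 1, so that this relation rested on those mice. The part of these tissue shares in the differences between groups was not tested.

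**Figure D3:**
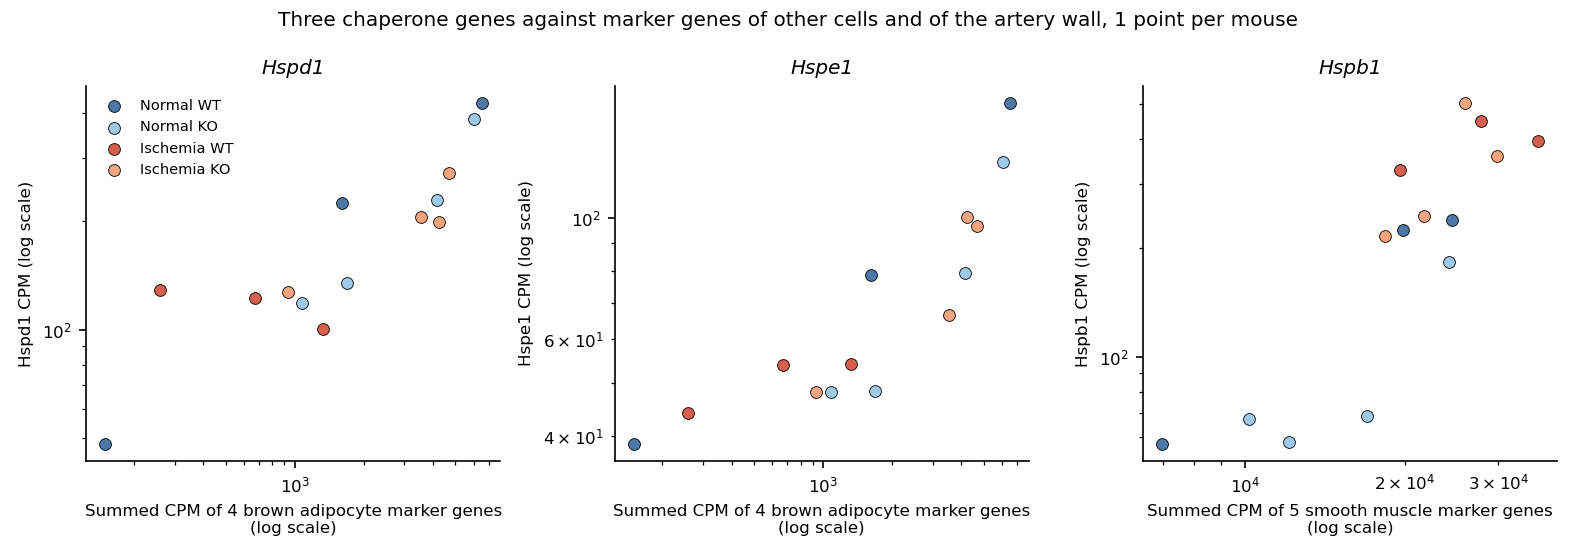
Level of Hspd1, Hspe1 and Hspb1 in each mouse against the summed level of 4 brown adipocyte or 5 smooth muscle marker genes, in CPM on log axes, with colours for the 4 groups. Hspe1 lies higher in mice with more brown adipocyte marker RNA (r = 0.904 with the mean log2 CPM of these markers, group means removed), and the 4 mice with the lowest Hspb1 are normal mice with less smooth muscle marker RNA.

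Among the 45 pairs of the 10 genes, with group means removed, 32 correlations over the 14 mice were positive and 13 negative, from r = −0.579 (Hspb1 and Hspe1) to 0.926 (Hspd1 and Hspe1). In a two-sided exact permutation within groups, 4 of the 45 pairs passed Benjamini-Hochberg adjustment at 0.05 in both measures. Hsph1 and Hsp90aa1 had r = 0.908 (exact permutation, p = 0.000289, adjusted p = 0.0109) and rho = 0.881 (p = 0.000675, adjusted p = 0.0152). Hsp90aa1 and Hspa8 had r = 0.886 (exact permutation, p = 0.00145, adjusted p = 0.0163) and rho = 0.877 (p = 0.00101, adjusted p = 0.0152), and Hsph1 and Hspa8 had r = 0.773 (p = 0.000482, adjusted p = 0.0109) and rho = 0.824 (p = 0.000289, adjusted p = 0.0130). The cytosolic Dnajb1 and the mitochondrial Hspd1 had r = 0.891 (exact permutation, p = 0.000723, adjusted p = 0.0109) and rho = 0.846 (p = 0.00145, adjusted p = 0.0163). Without the 2 mice farthest from the median of the first gene, r was 0.960, 0.752, 0.923 and 0.764, and over the 13 mice of lane 8 it was 0.866, 0.838, 0.681 and 0.922. Hspd1 and Hspe1 passed in r (exact permutation, p = 0.00222, adjusted p = 0.0166) but not in rho (0.798, p = 0.0160, adjusted p = 0.103). The exons of Hspd1 and Hspe1 overlap on opposite strands by 112 bases, or 7.6% of the length of Hspe1. Over the 14 mice without removal of group means, the genes outside the 10 whose log2 CPM was most like that of Hspd1 were 4833439L19Rik (r = 0.977), Lrpprc (0.975), Clpb (0.975), Lypla1 (0.974) and Rcbtb2 (0.970). Those most like Hspa1a were Atrn (r = 0.847), Eef1a1-ps1 (0.835), Gm15663 (0.823), Snapc1 (0.823) and 5930403L14Rik (0.821), whose rho was lower, from 0.745 for Atrn to 0.402 for Snapc1. The correlations with genes outside the 10 are descriptions and carry no test. All these correlations, also those among the 10, share the libraries and the tissue makeup of the same mice. With group means removed, Dnajb1 and Hspd1 had r = 0.723 and 0.923 with white adipocyte markers. With smooth muscle markers they had r = −0.699 and −0.726, and none of these passed adjustment. The part of tissue makeup in the 45 pairs was not tested, and pairs of other genes were not counted for comparison.

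Within KO mice, 0 of the 10 genes passed the limits in edgeR after ischemia, against 0.294% of all genes, while DESeq2 called Hspb1 and Hspa5 (adjusted p = 0.00671 for both). DESeq2 called 606 of the 17693 genes here, where edgeR called 52. At an unadjusted p under 0.05, 6 of the 10 were higher (Hspb1, Hspa5, Hspa8, Dnajb1, Hsph1 and Hsp90aa1), against 5.75% of all genes. Every ischemic KO mouse was above every normal KO mouse for Hsph1, Hspb1 and Hspa5, a separation found for 5.49% of all genes. The differences were 1.81 ± 0.47 for Hspb1, 1.61 ± 0.61 for Hsph1, 1.0 ± 0.26 for Hspa5, 0.89 ± 0.37 for Hsp90aa1, 0.86 ± 0.32 for Hspa8 and 0.48 ± 0.18 for Dnajb1, with edgeR adjusted p from 0.122 for Hspa5 to 0.322 for Hsp90aa1. The other 4 lay between −0.47 ± 0.79 (Hspa1a) and 0.42 ± 0.92 (Hspa1b). All 8 KO mice were on lane 8. The erythroid markers (4 genes, none at 0) went the other way, from a sum of 316 to 544 CPM in normal to 69.3 to 168 CPM in ischemic KO mice.

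Within WT mice, 0 of the 10 genes passed the limits in edgeR and in DESeq2 after ischemia, against 0.0113% of all genes in edgeR. Hspb1 alone was higher at an unadjusted p under 0.05, against 4.1% of all genes, and its groups did not overlap, as for 6.63% of all genes. Its difference was 1.17 ± 0.53 (edgeR adjusted p = 0.520). Hspa5 differed by 0.56 ± 0.29, Hsp90aa1 by 0.53 ± 0.43, Hsph1 by 0.38 ± 0.69 and Hspa8 by 0.11 ± 0.37, whereas Hspe1 and Hspd1 differed by −0.88 ± 0.47 and −0.99 ± 0.60, and by −0.23 and −0.24 without normal WT replicate 2. With the mice of lane 8 alone, 3 genes were higher at an unadjusted p under 0.05, namely Hsp90aa1 (1.09), Hspb1 (1.48) and Hspa5 (0.75), with edgeR adjusted p from 0.360 to 0.366, and the estimate for Hspa1a turned from −0.75 to 1.25.

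**Figure D4:**
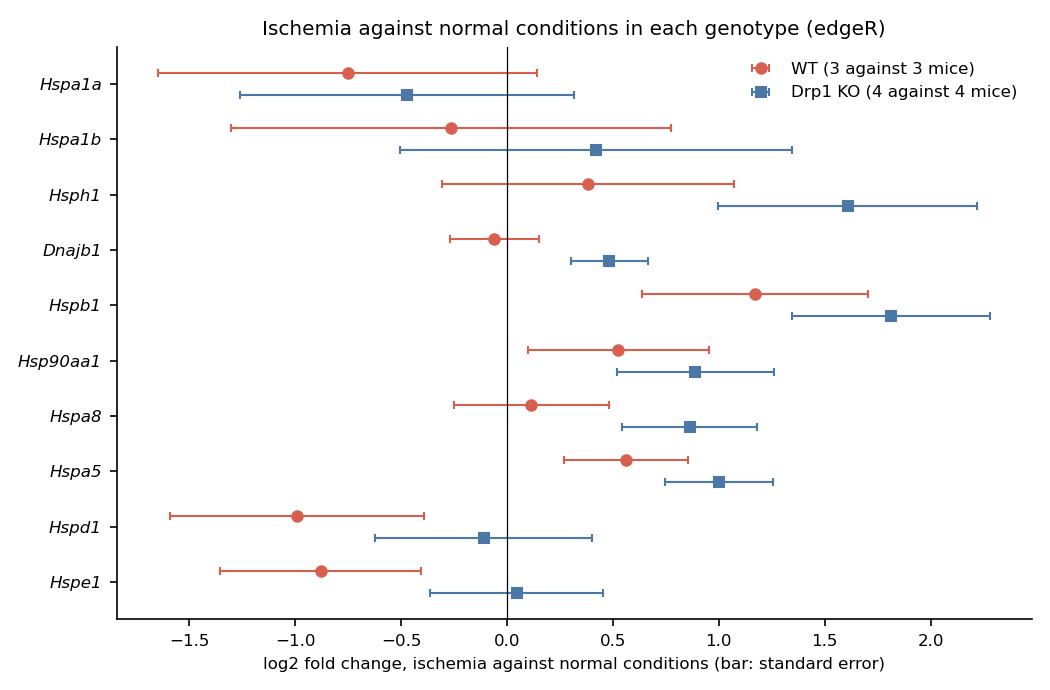
Log2 fold change of each gene after ischemia against normal conditions in WT mice (circles, 3 against 3) and KO mice (squares, 4 against 4), with bars for the standard error of the edgeR fit. Hspb1 has the highest estimate in both genotypes (1.17 and 1.81), and with all 14 mice the KO estimate is above the WT estimate for all 10 genes, though 0 of these 10 differences passed the test and 3 of them turn negative with the mice of lane 8 alone (Hspa1a, Hspa1b and Hsp90aa1).

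The interaction asked whether the difference after ischemia was larger in KO than in WT mice. The estimate was positive for 10 of 10 genes with all mice, and 0 of 10 passed the limits in edgeR, as did 0% of all genes. All genes with a positive estimate were not counted. The interaction also equals the KO to WT difference after ischemia minus that under normal conditions. The latter was lower in KO mice for 10 of 10 genes, so these sign counts are not separate results. At the unadjusted level of 0.05, 0 of the 10 genes passed, against 1.35% of all genes with a positive estimate, and DESeq2 also called 0. The smallest p was that of Dnajb1, at 0.0711 (0.54 ± 0.28, edgeR adjusted p = 0.946). All 10 estimates come from the same libraries, and with the mice of lane 8 alone the estimates of Hspa1a (−1.72), Hspa1b (−1.03) and Hsp90aa1 (−0.20) were negative.

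KO and WT mice were compared to ask whether the changed Drp1 allele goes with another chaperone level. Under normal conditions, 10 of 10 estimates were lower in KO mice, and 0 passed the limits in edgeR and DESeq2, as did 0% of all genes in edgeR. The median log2 difference was −0.64 over the 10 genes and −0.021 over all genes, and all genes with lower estimates were not counted. At an unadjusted p under 0.05, 3 of the 10 were lower (Hspa1a, Hspa1b and Hsph1), against 2.04% of all genes. The differences were −2.20 ± 0.99 for Hspa1b, −1.85 ± 0.84 for Hspa1a, −1.53 ± 0.64 for Hsph1, −0.89 ± 0.49 for Hspb1 and −0.70 ± 0.34 for Hspa8 (edgeR adjusted p from 0.933 to 0.974), and the other 5 lay between −0.59 and −0.022. The KO and WT groups overlapped for every gene. These values depended in size on normal WT replicate 3. Without it, that is within lane 8, the difference was 0.15 for Hspa1a, −0.48 for Hspa1b, −0.75 for Hsph1, −0.58 for Hspb1 and −0.32 for Hspa8. Hsp90aa1 was then at −0.022 and Hspa5 at 0.16, so that among the 10 genes the signs of Hspa1a and Hspa5 changed. In that fit, which had fewer WT mice, 0 of the 10 had an unadjusted p under 0.05.

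After ischemia, 0 of the 10 genes passed the limits between KO and WT mice in edgeR and DESeq2, as did 0% of all genes in edgeR. Dnajb1 was the only member at an unadjusted p under 0.05, against 2.88% of all genes that were higher in KO mice at that level. It had 42.1, 33.8 and 36.1 CPM in WT and 43.5, 54.4, 49.8 and 56.5 CPM in KO mice after ischemia. The groups did not overlap, as for 4.74% of all genes, though the gap between them was small, and the difference was 0.45 ± 0.20 (edgeR adjusted p = 0.715). Hspd1 and Hspe1 differed by 0.77 ± 0.56 and 0.62 ± 0.45, beside brown adipocyte markers whose median log2 difference was 2.07 in the same comparison, with 4 of 4 estimates higher in KO mice. Averaged over both conditions, 0 of the 10 genes passed the limits in edgeR and DESeq2, as did 0% of all genes in edgeR. Hspa1a (−1.71 ± 0.59) and Hspa1b (−1.86 ± 0.70) were lower at an unadjusted p under 0.05 (edgeR adjusted p = 0.588 and 0.610), against 4.36% of all genes, and within lane 8 the differences were −0.71 and −1.0 (edgeR adjusted p = 0.751 and 0.736).

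Other genes of the same pathways were described from lists. Of 20 other genes of the cytosolic heat shock network, 19 were tested and 1 passed the limits after ischemia over both genotypes, against 0.927% of all genes. This was Bag3, the co-chaperone that links HSP70 to Hspb8 and to the autophagic clearance of damaged proteins. Bag3 rose from 135 ± 30.7 CPM (SD, n = 3) in normal WT mice to 304 ± 97.0 CPM (n = 3), and from 128 ± 15.4 to 259 ± 35.8 CPM in KO mice (n = 4 each). The difference was 1.10 ± 0.17 (edgeR adjusted p = 0.0108), and it passed in all 14 fits that left out 1 mouse, within 0.97 to 1.20. The exact permutation, which called 0 of all genes, gave it an adjusted p of 0.0808. That equals the value of Hspb1, whose p was the smallest possible, so this permutation could not have called Bag3. Of the 19 genes, 7 were higher at an unadjusted p under 0.05 (8.35% of all genes) and 0 were lower, and the median log2 difference was 0.27. Hspb8, a small heat shock protein, and Dnajb5, an HSP40 co-chaperone, differed by 0.56 ± 0.22 and 0.66 ± 0.27 (edgeR adjusted p = 0.221 and 0.231).

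Of 17 other ER chaperone and unfolded protein response genes, 0 passed both limits, and the median log2 difference was 0.22. At an unadjusted p under 0.05, 4 were higher, against 8.35% of all genes, and 1 was lower, a side not counted over all genes. Xbp1, the transcription factor activated by splicing in ER stress, had an adjusted p of 0.0463 in edgeR, but its difference of 0.57 ± 0.12 was under the limit on the fold change. Manf and Creld2, secreted ER stress proteins, differed by 0.67 ± 0.20 and 0.62 ± 0.19 (edgeR adjusted p = 0.124 and 0.129). Of the 14 genes of this list with a promoter sequence, 6 held the ER stress element that was also found in Hspa5, and 0 held GAANNTTC or TTCNNGAA. Ranked by p among the 17, the 6 were Creld2 (3), Dnajc3 (4), Hsp90b1 (10), Calr (12), Pdia6 (14) and Canx (16). Xbp1 and Manf, which ranked 1 and 2, were not among the 6.

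Of 15 genes of mitochondrial protein quality control, 0 passed the limits and 12 had lower estimates, with a median log2 difference of −0.28. The share of all genes lower at an unadjusted p under 0.05 was not counted, and 1 of the 15 was lower at that level. That gene was Dnaja3, the mitochondrial HSP40 (−0.96 ± 0.43, edgeR adjusted p = 0.260), followed by the disaggregase Clpb (−0.64 ± 0.38) and the inner membrane protease subunit Afg3l2 (−0.53 ± 0.33). Without normal WT replicate 2 these were −0.45, −0.19 and −0.19. The brown adipocyte markers moved with this list, with 4 of 4 estimates lower and a median of −0.93, and in WT mice a median of −1.95 beside 14 of 15 lower estimates in the list, and their part in it was not tested. Clpb, which was also among the genes most like Hspd1, had 16.6 to 136 CPM in normal WT mice. Of the 8 subunits of TRiC, the cytosolic chaperonin, 0 passed the limits and 0 had an unadjusted p under 0.05, with 8 of 8 estimates higher and a median of 0.18. Cct7 (0.32 ± 0.15), Cct8 (0.26 ± 0.13) and Cct3 (0.30 ± 0.17) had the smallest p of this list.

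Of 8 immediate early genes, which respond to stress and to tissue handling within minutes, 3 passed the limits after ischemia over both genotypes, against 0.927% of all genes, and 5 were higher at an unadjusted p under 0.05, against 8.35%. Junb differed by 1.81 ± 0.32, Atf3 by 1.17 ± 0.23 and Ier2 by 0.92 ± 0.20 (edgeR adjusted p = 0.0221, 0.0327 and 0.0467). The average of Atf3 joins unlike values, 0.13 ± 0.35 in WT and 2.21 ± 0.32 in KO mice (edgeR adjusted p = 0.904 and 0.0132), and the interaction of 2.07 ± 0.47 had an unadjusted p of 0.000596 but did not pass adjustment (edgeR adjusted p = 0.946). The summed level of the list was 502 to 710 CPM in normal WT, 355 to 650 in normal KO, 929 to 1121 in ischemic WT and 663 to 901 CPM in ischemic KO mice, so normal and ischemic mice of the same genotype did not overlap. Their part in the chaperone differences was not tested.

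**Figure D5:**
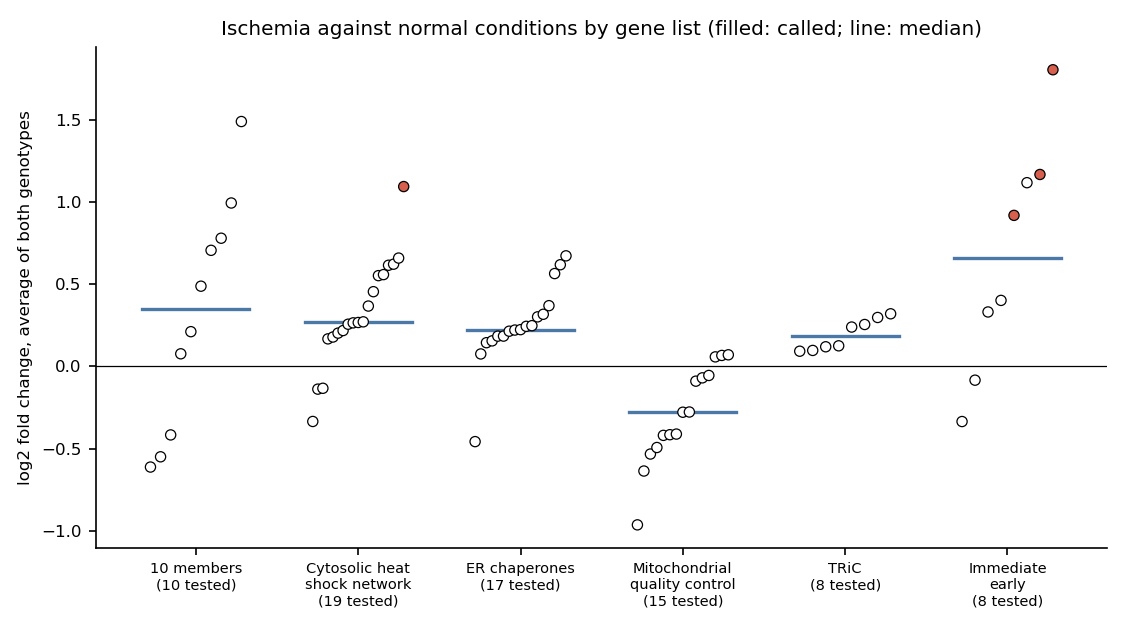
Log2 fold change after ischemia, averaged over both genotypes, of each tested gene of the 10 chaperones and of 5 pathway lists, with a line at the list's median and filled points for genes past an FDR of 0.05 and a fold change of 1.5. Bag3 (1.10) is the filled point among 19 genes of the cytosolic network, and Junb, Atf3 and Ier2 are those among 8 immediate early genes.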

How the data were processed

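RNA of 14 superior mesenteric arteries was sequenced, and the authors deposited raw read counts per gene symbol and mouse, without normalization and without pooling of replicates. The submitters' processing notes name HISAT2 2.0.4 and mm10, whereas the counter, its annotation and its use of strand are not given in the sources used here. Samples were grouped by the labels' genotype and condition, and 0 columns of values were left unused. The members and lists were chosen with earlier results of these data known. The 10 members are described in every comparison. Of each pathway list, counts were taken for the whole list and values for the 3 genes with the smallest p in the average difference after ischemia, and of Hspa1a and Hspd1 the 5 genes with the highest correlation.

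Of 46095 symbols, 27727 had a count. Genes were kept by filterByExpr, libraries were scaled by TMM, and 17693 genes were tested by edgeR 4.0.16 (quasi-likelihood F-test, limma 3.58.1, R 4.3.3) in 1 fit of the 4 groups, with Benjamini-Hochberg adjustment over all genes and calls at an FDR below 0.05 with a fold change above 1.5. The study's RVM F-test was not repeated, because the table holds counts. The biological coefficient of variation was 0.522, so the spread between mice limits most genes more than counting does. Log2 CPM used a prior count of 2. DESeq2 1.42.0, exact permutations, other scalings and filters, the replicate number as a block, fits of only the groups compared and each mouse left out in turn were the alternatives. The steps were tested on simulated data. Within groups, all 18 pairs of mice differed beyond sampling noise (chi-square per degree of freedom of at least 64.5). Coordinates are from GENCODE M21 (GRCm38) and promoters from RefSeq (GRCm38.p6).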

Additional observations from a re-analysis of the deposited data

Results flagged for a closer look

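A mouse far from the others of its group was looked for in the 20 groups of 4 mice (10 genes in the normal KO and the ischemic KO group) by Dixon's test, which flags about 1 in 20 groups by chance. It found 2. Normal KO replicate 1 had 182.5 CPM of Hspb1, against 58.0 to 68.4 CPM in the other 3 normal KO mice. Normal KO replicate 3 had 0.497 CPM of Hspa1b (22 reads), against 3 to 5 reads in the other 3. Groups of 3 mice, which include normal WT replicate 3 with its high Hspa1a, were not tested this way.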

How the results depend on the processing

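For the 10 genes in the 7 comparisons, edgeR called 0 with all settings as described, and also 0 under the other scalings, the stricter filter, no limit on the fold change and the fits of only the groups compared. DESeq2 called 2 genes after ischemia in KO mice and 2 over both genotypes, without a filter on low counts edgeR called 1 over both genotypes (Hspb1, adjusted p = 0.0450), and leaving out 1 mouse gave 0 to 1 (Hspb1, without normal KO replicate 1, 1.76, adjusted p = 0.0260). Over all genes, the calls after ischemia over both genotypes numbered 164 in edgeR, 870 in DESeq2, 60 to 361 with 1 mouse left out and 0 in the exact permutation, and the counts of DESeq2 in the other comparisons were 41, 18, 108, 606, 88 and 11. No scaling moved the median of all genes by over 0.1.

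Replicate numbers were not used as pairs in the main fit, because the mice differ between groups. With group means removed, same-numbered mice of different groups had correlations of −0.15 to 0.32 (median 0.12). Of these pairs, 11 of 19 were over 0.1, and the median for mice with other numbers was −0.045. Of 14 mice, 8 correlated best with their own number. What same-numbered mice share was not tested. With the replicate block, 0 members were called in each comparison and 156 genes after ischemia over both genotypes, and 4 estimates near 0 changed sign: Hspa1b in WT mice after ischemia (0.11), Hspd1 in KO mice after ischemia (0.0024), Hspe1 between KO and WT over both conditions (−0.066) and Hspa1a in the interaction (−0.050). The cause was not tested.

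With 1 mouse left out, estimates that crossed 0 ranged as follows, with the cause not tested. After ischemia over both genotypes these were Hspa1a (−0.93 to 0.39) and Hspa1b (−0.26 to 0.94). After ischemia in WT mice these were Hspa1a (−1.38 to 1.25), Hspa1b (−0.93 to 1.45), Hsph1 (−0.15 to 1.17), Dnajb1 (−0.23 to 0.14) and Hspa8 (−0.070 to 0.50), and in KO mice Hspd1 (−0.29 to 0.32) and Hspe1 (−0.12 to 0.41). Between the genotypes under normal conditions these were Hspa1a (−2.32 to 0.15), Dnajb1 (−0.24 to 0.12), Hspa5 (−0.20 to 0.16), Hspd1 (−0.58 to 0.66) and Hspe1 (−0.67 to 0.36), after ischemia Hspa8 (−0.17 to 0.22), and over both conditions Hspe1 (−0.025 to 0.51). In the interaction these were Hspa1a (−1.72 to 0.91), Hspa1b (−1.03 to 1.54) and Hsp90aa1 (−0.20 to 0.71). The estimates of Hspb1 and Hspa5 after ischemia over both genotypes stayed within 1.29 to 1.76 and 0.65 to 0.87. Junb, Atf3 and Ier2 passed the limits in 12, 4 and 2 of the 14 fits with 1 mouse left out, with adjusted p up to 0.0521, 0.0789 and 0.101.

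Depth limits Hspa1a and Hspa1b, with as few as 7 and 3 reads in a mouse, and groups of 3 or 4 mice limit the rest. Intervals from counts alone would cover counting error only.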

Other observations

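Markers of other cell types that a dissected artery can hold were summed as well. Macrophage markers were 48.0 to 122 CPM in normal WT and 64.8 to 220 CPM in normal KO mice, and 20.1 to 69.8 and 47.9 to 105 CPM after ischemia, with 4 of 4 estimates lower after ischemia over both genotypes. Erythroid markers were also lower after ischemia, with 4 of 4 genes at an unadjusted p under 0.05 and 0 past the limits in edgeR. The share of all genes lower at that level was not counted. White adipocyte markers had 4 of 4 lower estimates, with a median log2 difference of −0.94. Endothelial markers had a median of −0.22, and fibroblast markers were lower after ischemia in KO mice (median −1.29) and higher in WT mice (median 0.66), with 0 called in either.

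Lymphocyte markers reached at most 8.96 CPM in sum, neutrophil markers 17.7 CPM, intestinal epithelial markers 32.8 CPM, pancreatic acinar markers 3.50 CPM and sympathetic neuron markers 11.7 CPM in any mouse, and Pnlip and Th were at 0 in all 14 mice. Skeletal muscle markers summed to 164.8 CPM in 1 ischemic KO mouse, where Ckm made up 161.5 CPM, and to at most 12.1 CPM in any mouse of the other 3 groups.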
